A study of Mus musculus with 4 samples.

Results

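The cytoplasmic ribosomal protein genes encode the proteins of the 40S and 60S ribosome subunits. They were taken by symbol, as every gene name of the Rpl, Rps, Rplp and Rpsa form in the deposited tables, with the paralogs whose names end in a, x or l. In the table of transduced CD4 T cells 81 of 23259 named genes matched, and in the table of regulatory T cells (Treg) 75 of 10663. The Treg table holds only genes above 1 FPKM in a library and does not list Rpl21, Rpl26, Rpl29, Rpl3l, Rpl10l and Rpl39l. The rule itself uses names alone. RNA came from 2 separate mouse experiments, each with 2 groups of 1 library. In one experiment wild-type C57BL6 mice gave naive CD4 T cells, which received a vector carrying Sox12, a SoxC transcription factor, or a mock vector. In the other, splenic Treg were purified by human CD2 from Balb/c Foxp3-hCD2 reporter mice that either had 3% dextran sulfate sodium (DSS) in their drinking water for 7 days, a polymer that injures the colon epithelium, or were not treated. The reporter allele was thus carried by both Treg groups. The number of mice behind a library and the culture of the transduced cells are not given in the labels. Both tables hold FPKM, fragments per kilobase of transcript scaled to the size of the library. A change below is the difference of log2(FPKM + 1), and a ratio is of the FPKM themselves. A single library per group leaves no replicate error, so no test was made, and a gene was called different only at a change of at least 1 in size.

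Each ribosome is built from 1 copy of most of these proteins, so cells make them in nearly matched amounts. Their mRNAs are among the most abundant of a lymphocyte, and an activated T cell raises ribosome production before it divides. The mRNAs share a terminal oligopyrimidine (TOP) start, a C at the cap followed by a run of C and T, through which mTOR and the binding protein LARP1 control their translation and stability. Several translation factors have TOP mRNAs too, while the nucleolar factors that assemble ribosomes are mostly known as targets of Myc.

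At their annotated starts some members carry this feature, more often than other genes do but not in most cases. The 7 sequences below are examples from the members that have it, shown so that the run can be seen. RefSeq promoters of build GRCm38.p6, 250 bases before to 50 bases after the annotated start, matched 61 of the 81 members. Below, 10 bases before and 20 bases from the start are written 5′ to 3′ on the gene's strand, and capitals mark the run of C and T that begins at the annotated start.
Rpl15 (chr14:18270967-18270996, minus strand): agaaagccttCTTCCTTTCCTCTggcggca
Rpl28 (chr7:4792955-4792984, plus strand): tctcgtgtctCTCTTTCCgtctccggccgc
Rpl38 (chr11:114668570-114668599, plus strand): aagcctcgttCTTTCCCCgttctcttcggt
Rps6 (chr4:86857348-86857377, minus strand): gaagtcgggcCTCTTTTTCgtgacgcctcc
Rps10 (chr17:27635225-27635254, minus strand): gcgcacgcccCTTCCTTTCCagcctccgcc
Rps18 (chr17:33955646-33955675, minus strand): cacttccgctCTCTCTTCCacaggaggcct
Rps27 (chr3:90213629-90213658, minus strand): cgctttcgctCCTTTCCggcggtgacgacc
The run was 13 bases long in Rpl15 and 7 in Rps27. A C at the annotated start followed by at least 4 bases that are each C or T was found in 13 of 61 members (21.3%), against 440 of 15708 genes of the vector table with a promoter (2.80%). A run of at least 8 C or T within 15 bases of the start was found in 26 of 61 members (42.6%), against 14.04% of those genes. The core CCGGAAG, which ETS factors bind, lay on either strand in the promoters of 26 of 61 members (42.6%), against 12.8% of those genes. Among the expressed genes alone, those whose 2 vector libraries averaged 1 FPKM or more, that share was 22.2%, and the shares with the start feature and with the longer run were 3.04% and 14.8%. AAGATGGC, a core of YY1 motifs, lay on either strand in 5 of 61 members (8.20%), against 3.58% of those genes and 5.75% of the expressed ones. Annotated starts can differ from the starts used in T cells, and a match is no evidence of use.

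With the Sox12 vector nearly all ribosomal protein mRNAs were lower than with the mock vector, by a similar and modest factor. The members summed to 38542 FPKM in the Sox12 vector library, against 49417 FPKM in the mock vector library, a ratio of 0.780. They held 9.34% of all FPKM with the Sox12 vector and 11.6% with the mock vector. Without small RNAs these shares were 10.02% and 12.4%. Of the 81 members, 78 averaged 1 FPKM or more, and 75 of the 78 were lower with the Sox12 vector. Of all 10822 genes past that filter, 51.1% were lower and 48.9% higher. The median change of the members was -0.35, and that of all genes was -0.01. Among 242 other genes that averaged 200 FPKM or more, 157 (64.9%) were lower and the median change was -0.12. The members also lay close together. The central 50% of them lay between -0.41 and -0.28, while the central 50% of all genes lay between -0.22 and 0.22. No member was called, against 4.85% of all genes called higher and 1.91% called lower. In bulk RNA fewer cells of a type and less RNA per cell cannot be told apart.

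**Figure D1:**
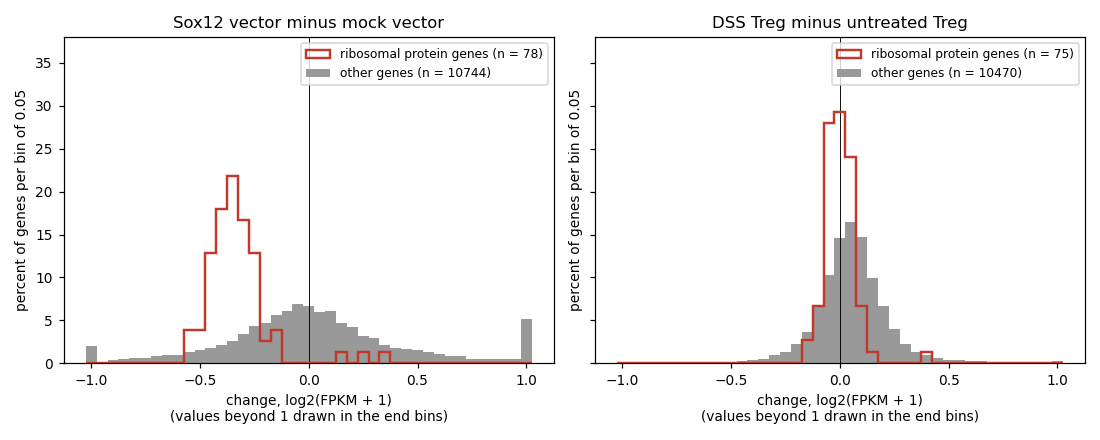
Distribution of changes in log2(FPKM + 1) for ribosomal protein genes (red line) and other genes (grey), as percent of genes per bin, for the Sox12 vector minus the mock vector (left) and DSS Treg minus untreated Treg (right). With the Sox12 vector the members form a narrow peak around -0.35, and in DSS Treg they peak near -0.01.

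The P stalk, the flexible arm of the large subunit that recruits elongation factors, was lower in all 3 of its genes. Rplp1, the most abundant member in all 4 libraries, had 2242 FPKM with the Sox12 vector, against 3230 FPKM with the mock vector (change -0.53). Rplp0, which anchors the stalk, had 1092 FPKM with the Sox12 vector and 1341 FPKM with the mock vector (change -0.30). Rplp2, the partner of Rplp1, had 418 FPKM with the Sox12 vector and 510 FPKM with the mock vector (change -0.29). Rplp1 was thus among the members with the largest change, while Rplp0 and Rplp2 lay nearer to 0 than the median member.

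Of the other 60S genes 42 of 43 were lower with the Sox12 vector, with a median change of -0.35. The lowest was Rpl13, a protein of the large subunit that is mutated in a human bone dysplasia, with 382 FPKM with the Sox12 vector and 566 FPKM with the mock vector (change -0.57, ratio 0.675). The X-linked Rpl36a had 353 FPKM with the Sox12 vector and 511 FPKM with the mock vector (change -0.53). Rpl22, whose loss in mice blocks the development of alpha-beta T cells, had 90.1 FPKM with the Sox12 vector and 129.7 FPKM with the mock vector (change -0.52). Rpl12, which lies at the base of the stalk, had 388 FPKM with the Sox12 vector and 552 FPKM with the mock vector (change -0.51). Rpl29 had 21.6 FPKM with the Sox12 vector and 30.2 FPKM with the mock vector, and Rpl28 438 and 603 FPKM in the same order. These genes span a wide range of levels. Over the 78 members the change and the log2 mean level had a Pearson r of -0.34 and a Spearman rho of -0.17, a description over genes of the same libraries. Rpl41, the smallest protein of the ribosome, had 1931 FPKM with the Sox12 vector and 2499 FPKM with the mock vector (change -0.37), and Rpl32 had 1054 and 1341 FPKM in the same order (change -0.35). Both lay close to the median member. Rpl5 and Rpl11 travel to the ribosome as one complex with 5S rRNA, and outside the ribosome this complex binds Mdm2, the inhibitor of p53. Rpl5 had 409 FPKM with the Sox12 vector and 561 FPKM with the mock vector (change -0.45), and Rpl11 had 656 FPKM with the Sox12 vector and 772 FPKM with the mock vector (change -0.23).

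Other 60S genes were lower by less. Rpl38, whose mutation in mice alters the axial skeleton, had 1165 FPKM with the Sox12 vector and 1304 FPKM with the mock vector (change -0.16). Rpl7a had 61.7 FPKM with the Sox12 vector and 67.9 FPKM with the mock vector (change -0.14). Rpl13a, which in human monocytes also silences the translation of inflammatory mRNAs, had 406 FPKM with the Sox12 vector and 462 FPKM with the mock vector (change -0.19). Rpl24 had 152 FPKM with the Sox12 vector and 175 FPKM with the mock vector (change -0.20). Rpl35, which lies at the exit of the peptide tunnel, had 771 FPKM with the Sox12 vector and 906 FPKM with the mock vector (change -0.23). No lower 60S gene had a smaller change than Rpl7a.

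Of the 40S genes 30 of 32 were lower with the Sox12 vector, with a median change of -0.35. Rps18 had 921 FPKM with the Sox12 vector and 1324 FPKM with the mock vector (change -0.52). Rps15 had 1320 FPKM with the Sox12 vector and 1816 FPKM with the mock vector (change -0.46). Rps14, which is lost in the human 5q- syndrome, had 173 FPKM with the Sox12 vector and 238 FPKM with the mock vector (change -0.46). All 3 were among the 10 members with the largest change. Rpsa, also known as a laminin receptor, had 873 FPKM with the Sox12 vector and 1191 FPKM with the mock vector (change -0.45). Rps6, the protein phosphorylated by S6 kinases downstream of mTOR, had 325 FPKM with the Sox12 vector and 429 FPKM with the mock vector (change -0.40). Rps3, which also binds the NF-kB subunit p65, had 475 FPKM with the Sox12 vector and 577 FPKM with the mock vector (change -0.28). Abundant 40S genes lay in the same range. Rps26, which lies where the mRNA leaves the ribosome, had 1930 FPKM with the Sox12 vector and 2273 FPKM with the mock vector (change -0.24). Rps10, which like Rps26 is mutated in human Diamond-Blackfan anaemia, had 1141 FPKM with the Sox12 vector and 1487 FPKM with the mock vector (change -0.38). Rps4x, the X-linked form of Rps4, had 1043 FPKM with the Sox12 vector and 1381 FPKM with the mock vector (change -0.40).

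**Figure D2:**
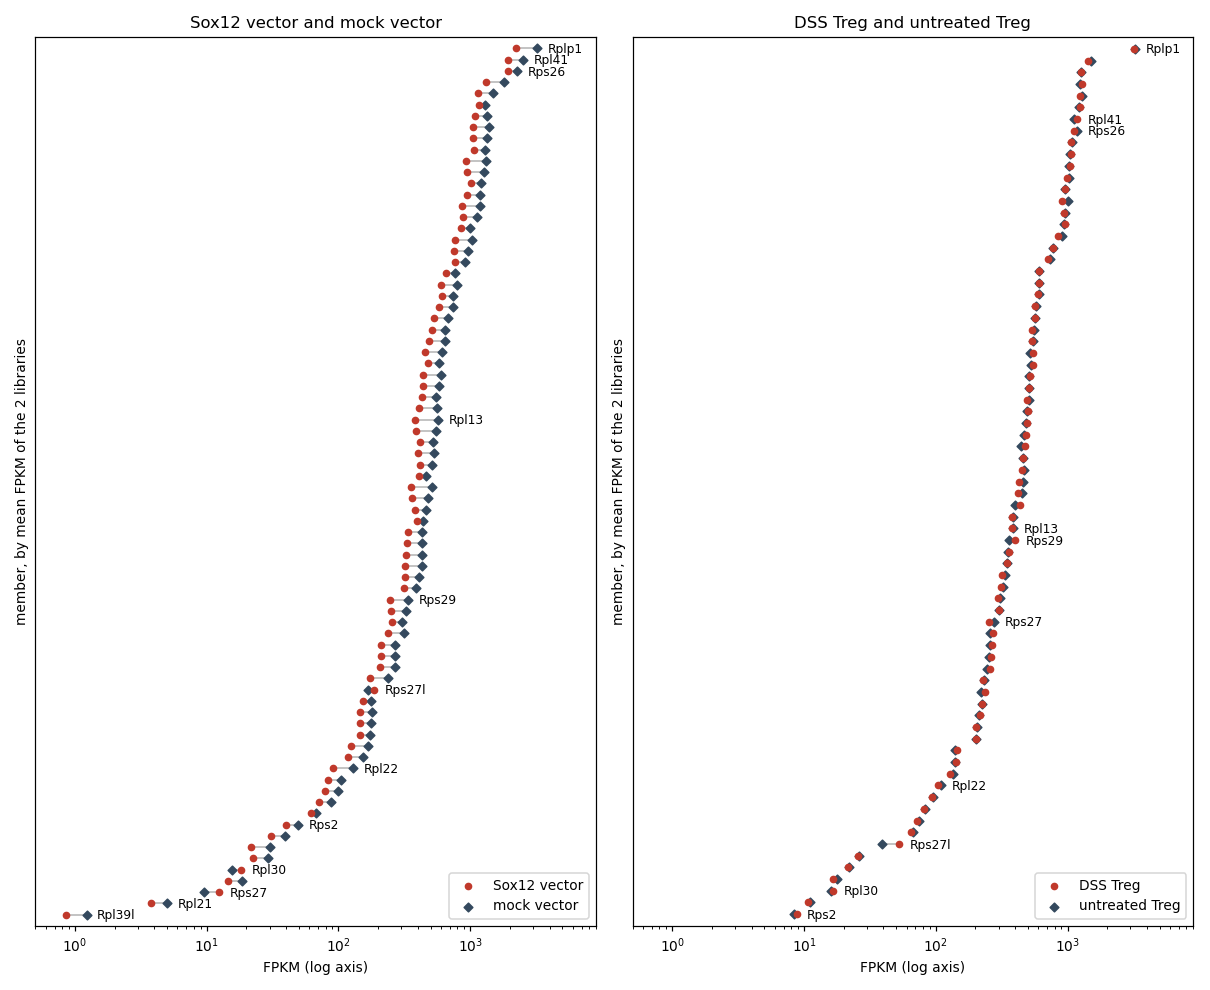
FPKM on a log axis of the members that averaged 1 FPKM or more, 1 row each, ordered by mean, with a few of them named, with the Sox12 vector (red) and the mock vector (dark) on the left and DSS Treg (red) and untreated Treg (dark) on the right. In the left panel the red points lie at lower FPKM than the dark ones for 75 of 78 members. In the right panel the points nearly coincide except for Rps27l.

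The 3 members that were higher with the Sox12 vector were Rps27, Rpl30 and Rps27l. Rps27l is a close paralog of Rps27 and a known p53 target. It had 186 FPKM with the Sox12 vector and 168 FPKM with the mock vector (change 0.14). Rpl30 had 18.3 FPKM with the Sox12 vector and 15.5 FPKM with the mock vector (change 0.23). Rps27 had 12.3 FPKM with the Sox12 vector and 9.49 FPKM with the mock vector (change 0.34). Rps27 and Rpl30 rested on few fragments. Judged by low values in the deposited file, 1 FPKM corresponded to about 44.8 fragments per kilobase in the Sox12 vector library and 42.9 in the mock vector library. Rps27 then had about 190 fragments with the Sox12 vector and 140 with the mock vector, a counting error of 0.16 on the log2 scale. Rpl30 had about 468 and 379 fragments in the same order, with an error of 0.10. For the median member that error was 0.02, and it covers counting alone.

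Of the members below the filter, Rpl26 was the only one past the size rule. It is listed at 1.43 FPKM with the Sox12 vector and at 3.01e-05 FPKM with the mock vector (change 1.28), on about 34 and 0 fragments. With 1 library this close to 0, no ratio is given. The tissue-restricted paralogs were near 0. Rpl10l, a testis paralog of Rpl10, is listed at 0 in both vector libraries. Rpl3l, a paralog of Rpl3 in heart and skeletal muscle, is listed at 0 FPKM with the Sox12 vector and at 0.0259 FPKM with the mock vector. Rpl39l, a paralog of Rpl39 known from male germ cells, had 0.859 FPKM with the Sox12 vector and 1.23 FPKM with the mock vector, on about 21 and 29 fragments. Their common counterparts stood far above them. Rpl10 had 212 FPKM with the Sox12 vector and 267 FPKM with the mock vector, Rpl3 440 and 579 FPKM, and Rpl39 399 and 530 FPKM. Among paralogs with other name forms, Rpl36al had 422 FPKM with the Sox12 vector and 540 FPKM with the mock vector, and Rpl22l1 had 18.5 and 23.5 FPKM. Rpl7l1 had 42.8 FPKM with the Sox12 vector and 42.9 FPKM with the mock vector, while Rpl7 had 584 and 736 FPKM in the same order (change -0.33).

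The members differed widely in listed level, although most of the proteins are present once per ribosome. Over the vector libraries Rplp1 averaged 2736 FPKM and Rpl21 4.42 FPKM. Rpl21 had 3.81 FPKM with the Sox12 vector and 5.03 FPKM with the mock vector. Rps15a, Rpl17, Rpl29, Rps12 and Rps2 lay between 14.6 and 49.4 FPKM in the vector libraries. Ribosomal protein genes have many processed pseudogenes, copies of the mRNA in the genome, and fragments that fit several places may be split or dropped. In the principal GENCODE vM21 transcripts of the members, the median share of windows of 50 bases found exactly in a transcript of another gene was 57.4%. It was 98.6% in Rps27, 90.1% in Rps12, 79.0% in Rps2, 71.3% in Rpl26 and 55.5% in Rpl21, and it was 92.4% in the abundant Rps10. Across 81 members this share and the mean FPKM of the vector libraries had a Spearman rho of -0.07, and across 75 members the rho with the mean FPKM of the Treg libraries was -0.26, both given as descriptions. Of the 27 members past the filter with over 75% of windows shared, 6 averaged under 50 FPKM in the vector libraries, against 1 of 10, 1 of 18 and 1 of 23 members in the classes up to 25%, 50% and 75%. Across 78 members its rho with the change was 0.04. The share was computed on a later build than the authors', and its part in the low levels was not tested. The levels of single members are therefore uncertain, whereas both libraries of an experiment share the same gene model.

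Members with and without the start feature had similar median changes. The 13 members with a C and at least 4 C or T at the annotated start had a median change of -0.38 with the Sox12 vector, and the 45 others with a promoter past the filter had -0.34. Of the sequences above, Rps18 had a change of -0.52, Rpl28 -0.46, Rps6 -0.40, Rps10 -0.38, Rpl15 -0.32, Rpl38 -0.16 and Rps27 0.34. These 7 genes thus included both large and small changes.

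Genes that work with the ribosome gave a graded picture in the transduced cells. For comparison, 51.1% of all genes past the filter were lower with the Sox12 vector. Of genes other than members that averaged 200 FPKM or more, 64.9% were lower, with a median change of -0.12. The lists differ in level, and the part of level in the grading was not tested. Of 23 translation genes with known TOP mRNAs, 22 were lower with the Sox12 vector and the median change was -0.22. Eef1a1, the elongation factor that brings tRNA to the ribosome, had 3751 FPKM with the Sox12 vector and 5024 FPKM with the mock vector (change -0.42). Pabpc1, the poly(A)-binding protein, had 442 FPKM with the Sox12 vector and 606 FPKM with the mock vector (change -0.45). Eif4a2, a helicase of translation initiation, had 72.2 FPKM with the Sox12 vector and 106 FPKM with the mock vector (change -0.55). These changes were as large as those of the members. Gnb2l1, now named Rack1, a protein of the 40S subunit outside the name rule, had 924 FPKM with the Sox12 vector and 1188 FPKM with the mock vector (change -0.36). Fau, which encodes a 40S protein fused to a ubiquitin-like one, had 306 FPKM with the Sox12 vector and 391 FPKM with the mock vector (change -0.35). Hnrnpa1 was the 1 gene of this list that was not lower, at 77.1 FPKM with the Sox12 vector and 75.2 FPKM with the mock vector. Of 26 other initiation factors 16 were lower and 10 higher, with a median of -0.06 that reached 0.0005 under another scaling. Among them Eif4g2 had 212 FPKM with the Sox12 vector and 154 FPKM with the mock vector. Of 76 mitochondrial ribosomal protein genes 58 were lower, with a median of -0.07. With equal totals without the 20 highest genes 42 of the 76 were lower, and the median was -0.02.

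Ribosome assembly genes were not lower as a list. Of 49 biogenesis genes 22 were lower with the Sox12 vector and 27 higher, with a median of 0.01. The most abundant were the nucleolar proteins Npm1, at 567 FPKM with the Sox12 vector and 597 FPKM with the mock vector, and Ncl, at 232 and 230 FPKM in the same order. Of 34 genes of RNA polymerases I and III and their factors, which make the ribosomal RNA and tRNA, 14 were lower and 20 higher, with a median of 0.06. Polr3k, a small subunit of polymerase III, had 17.5 FPKM with the Sox12 vector and 9.24 FPKM with the mock vector (change 0.85). The median of the biogenesis list was -0.02 with equal 75th percentiles, where 19 of 49 were higher. It was 0.07, and 35 were higher, once totals were matched leaving out the 20 highest genes, while that of the TOP list stayed between -0.25 and -0.16. Among 26 regulators of Myc and mTOR, 3 were called, all higher with the Sox12 vector. Over all genes past the filter 4.85% were called higher and 1.91% called lower. Mycn, a Myc paralog, had 7.10 FPKM with the Sox12 vector and 1.81 FPKM with the mock vector. Mxd1, which opposes Myc, had 30.4 FPKM with the Sox12 vector and 10.03 FPKM with the mock vector. Sesn1, a p53 target that restrains mTOR, had 25.1 FPKM with the Sox12 vector and 8.44 FPKM with the mock vector. Myc itself had 153 FPKM with the Sox12 vector and 145 FPKM with the mock vector. Eif4ebp1, a repressor of translation, had 42.3 FPKM with the Sox12 vector and 78.9 FPKM with the mock vector. Of 6 genes that act with p53, Cdkn2a was called higher, at 19.9 FPKM with the Sox12 vector and 5.49 FPKM with the mock vector. Mdm2 had 41.2 and 42.2 FPKM and Cdkn1a 119 and 138 FPKM in the same order.

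**Figure D3:**
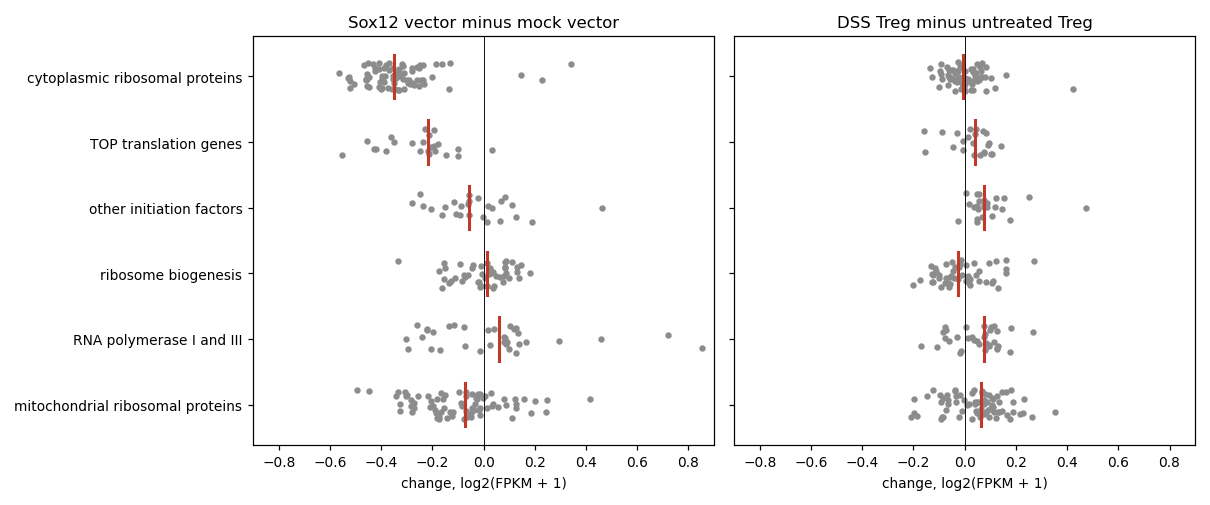
Changes in log2(FPKM + 1) of the genes of 6 lists (grey points) with their median (red bar), for the Sox12 vector minus the mock vector (left) and DSS Treg minus untreated Treg (right). On the left the cytoplasmic ribosomal proteins and the TOP translation genes lie below 0 and the biogenesis genes around it, and on the right no list median is beyond 0.08 in size.

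The transduced gene was high in its library. Sox12 had 829 FPKM in the Sox12 vector library and 1.56 FPKM in the mock vector library. For the marker counts that follow, 51.1% of all genes past the filter were lower and 48.9% higher. Called lower were 1.91% of them and called higher 4.85%. Of 8 T cell markers 7 were lower with the Sox12 vector, and Cd4 had 185 FPKM with the Sox12 vector and 261 FPKM with the mock vector. Cd5 was called lower, at 81.7 FPKM with the Sox12 vector and 189 FPKM with the mock vector. Of 10 Treg markers 7 were lower, with a median change of -0.47. Foxp3 was called higher, at 127 FPKM with the Sox12 vector and 20.9 FPKM with the mock vector. Called lower were Tnfrsf4, at 179.6 and 423 FPKM in the same order, Folr4, at 38.9 and 124 FPKM, and Nrp1, at 5.94 and 23.6 FPKM. Of the NK and CD8 T cell markers 9 of 9 past the filter were higher with the Sox12 vector, 6 of them called, and the list summed to 458 FPKM with the Sox12 vector and 153 FPKM with the mock vector, with no marker at 0. The myeloid list summed to 13.8 FPKM with the Sox12 vector and 6.12 FPKM with the mock vector, with Csf1r at 0 in both. The B cell list summed to 30.8 and 40.2 FPKM, nearly all of it Cd74, the plasma cell list to 132 and 244 FPKM, mostly Irf4 and Xbp1, and the basophil list to 0.612 and 0.723 FPKM, with Prss34 at 0 in both. The erythroid list summed to 221 FPKM with the Sox12 vector and 342 FPKM with the mock vector, most of it Tfrc, which dividing cells express. Its globin Hbb-b1 was called lower, at 9.27 FPKM with the Sox12 vector and 46.6 FPKM with the mock vector, as was Beta-s, at 5.05 and 25.5 FPKM in the same order. Gata1, an erythroid transcription factor, was called higher, at 8.80 FPKM with the Sox12 vector and 3.49 FPKM with the mock vector, and Slc4a1 was at 0 in both. The part of these markers in the lower ribosomal protein mRNAs was not tested.

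In Treg from DSS-treated mice the ribosomal protein mRNAs stood at nearly the same level as in untreated Treg. The members summed to 39757 FPKM in DSS Treg and 39959 FPKM in untreated Treg, a ratio of 0.995, and held 12.1% and 12.2% of the listed FPKM. All 75 members passed the filter, 45 were lower and 30 higher in DSS Treg, and the median change was -0.01. Of all 10545 genes past the filter 33.9% were lower and 66.1% higher, and the median change was 0.05. Among the 133 other genes that averaged 200 FPKM or more, 80 (60.2%) were lower, which is close to the share of the members. No member was called, against 0.19% of all genes called higher and 0.0759% called lower. With the median gene set to 0, 14 members were higher and 61 lower. The central 50% of the members lay between -0.04 and 0.03. The median was -0.02 over 40 genes of the 60S subunit and -0.00017 over 32 genes of the 40S subunit.

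The most abundant members were Rplp1, with 3208 FPKM in DSS Treg and 3275 FPKM in untreated Treg, and Rps15, with 1442 and 1504 FPKM. Other abundant members were Rps4x, Rps10, Rpl38, Rps9, Rpl41, Rps26 and Rps20, all between 1042 and 1297 FPKM in both libraries. The changes of those named lay between -0.07 and 0.08. At the other end Rps2 had 8.78 FPKM in DSS Treg and 8.40 FPKM in untreated Treg.

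The member furthest from 0 was Rps27l, with 52.6 FPKM in DSS Treg and 39.0 FPKM in untreated Treg (change 0.42, ratio 1.35). The next member was Rps29, a small zinc-binding protein of the 40S subunit, with 400 FPKM in DSS Treg and 358 FPKM in untreated Treg (change 0.16). Rpl39 had 437 FPKM in DSS Treg and 403 FPKM in untreated Treg (change 0.12), and Rpl36 235 and 219 FPKM (change 0.10). Rps21, Rps25, Rpl41, Rps10, Rps28 and Rps27a, a ubiquitin fusion gene, lay between 0.07 and 0.08. At the lower end Rps27 had 253 FPKM in DSS Treg and 278 FPKM in untreated Treg (change -0.14), and Rplp0 had 914 and 1000 FPKM (change -0.13). Rpl7a (-0.10), Rpl32 (-0.10), Rpl24 (-0.09), Rpl13a (-0.09), Rpl9 (-0.09), Rpl22 (-0.07), Rps26 (-0.07) and Rpl27a (-0.06) followed. These members at both ends kept their sign under other scalings, while 16 members whose positive change was no larger than that of Rps16 (0.05) turned lower under at least 1 of them. In the paralog pairs, Rpl22l1 had 26.9 FPKM in DSS Treg and 25.3 FPKM in untreated Treg, Rpl36al 302 and 311 FPKM beside Rpl36a at 310 and 322 FPKM, and Rpl7l1 23.1 and 22.97 FPKM beside Rpl7 at 597 and 603 FPKM. Rpl3 had 360 FPKM in DSS Treg and 351 FPKM in untreated Treg, and Rpl10 230.3 and 231 FPKM. The paralogs Rps27l and Rps27 thus stood at opposite ends of the members in Treg. Rps27l was higher than its comparison library in both experiments, as was Rpl30, which had 16.6 FPKM in DSS Treg and 16.1 FPKM in untreated Treg. The Treg change of Rpl30, 0.04, is among those that turned sign under other scalings.

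**Figure D4:**
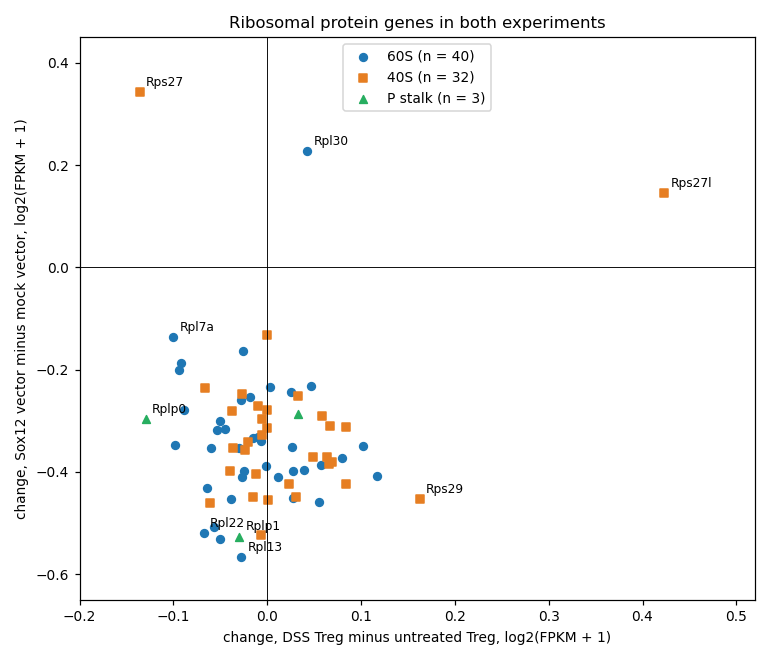
Change of the 75 members measured in both experiments, DSS Treg minus untreated Treg on the x axis and Sox12 vector minus mock vector on the y axis, coloured by subunit. Most points lie below 0 on the y axis and around 0 on the x axis, with Rps27, Rpl30 and Rps27l above 0 on the y axis.

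Rps27 was also the member whose listed level differed most plainly between the tables, with the 12.3 and 9.49 FPKM of the vector libraries beside the 253 and 278 FPKM of the Treg libraries. The tables come from other cells, another strain and a separate quantification, and these cannot be told apart. Over the 75 shared members the log2 levels of the tables had a Spearman rho of 0.93, as a description. The changes in the 2 experiments, which share no library, had a Pearson r of 0.09 over the same members. Of the 75, 44 were lower in both experiments and 2 were higher in both. Another 28 were higher in DSS Treg and lower with the Sox12 vector, and Rps27 was the reverse. Nearly all members were lower with the Sox12 vector, so the 44 largely restate the 45 that were lower in DSS Treg. Of all genes past the filter 33.9% were lower in DSS Treg and 51.1% with the Sox12 vector. Their joint split was not counted.

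The companion lists were also near 0 in DSS Treg. Of the 23 TOP translation genes 16 were higher and 7 lower (median 0.04, at its lowest -0.01 under other scalings). Of the 26 other initiation factors 25 were higher (median 0.07), and of the 49 biogenesis genes 20 were higher and 29 lower (median -0.03). Of the 34 polymerase genes 24 were higher (median 0.08) and of the 76 mitochondrial ribosomal protein genes 52 were higher (median 0.07). Eef1a1 had 3855 FPKM in DSS Treg and 3801 FPKM in untreated Treg. With the median gene set to 0 the counts of higher genes were 10 of 23 for the TOP list, 18 of 26 for the initiation factors, 12 of 49 for biogenesis, 19 of 34 for the polymerases and 42 of 76 for the mitochondrial list. As reported, 66.1% of all genes were higher, close to the shares of the polymerase and mitochondrial lists. No gene of these lists was called. Of 25 regulators of Myc and mTOR 19 were higher, with a median of 0.03 that turned to -0.02 under another scaling, with Eif4ebp1 at 15.1 FPKM in DSS Treg and 9.31 FPKM in untreated Treg and Myc at 31.0 and 36.6 FPKM. Treg markers were present, with Foxp3 at 84.9 FPKM in DSS Treg and 88.2 FPKM in untreated Treg. In the list of 10 Treg markers 6 were lower and 4 higher in DSS Treg. Their changes lay between -0.35 (Capg) and 0.18 (Ctla4), with a median of -0.06. Erythroid markers, whose immature cells are rich in ribosomes, were higher for 16 of 16 genes and summed to 1181 FPKM in DSS Treg and 788 FPKM in untreated Treg. Basophil markers summed to 29.9 and 8.20 FPKM and myeloid markers to 50.2 and 41.2 FPKM, DSS Treg given before untreated Treg. Among 9 listed myeloid markers 6 were higher and 3 lower, with Lyz2 at 6.36 and 8.30 FPKM in that order. B cell markers summed to 31.8 and 38.9 FPKM and plasma cell markers to 306 and 358 FPKM, in the same order. NK and CD8 T cell markers summed to 26.7 and 31.2 FPKM. Genes that did not pass 1 FPKM in either library are missing from this table, so these sums rest on 3 of 10 B cell, 5 of 10 NK and CD8 T cell, 9 of 15 myeloid, 5 of 7 plasma cell, 16 of 20 erythroid and 6 of 6 basophil markers. Their part in the levels of the members was not tested.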

How the data were processed

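Total RNA was purified with a PureLink kit and made into strand-specific SureSelect libraries, as the labels' protocols state. Cufflinks and mm9 are named in the submitters' processing notes, while versions, aligner and annotation are not stated there. The deposited Treg table holds linear FPKM and a fold ratio by the authors, which was not used. It lists genes above 1 FPKM in at least 1 library. The deposited vector table holds log2(FPKM + 1), which was turned back to FPKM, and a log2 difference by the authors, which was not used. Rows with a date in place of a symbol were left out (16 and 25).

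Changes are differences of log2(FPKM + 1) with a pseudocount of 1, within a table, for genes that averaged 1 FPKM or more. Python 3.11.15 with pandas 2.3.3 was used. The change, filter and call steps were tested on simulated data that held counting error alone. The fragment, window, promoter and scaling steps were not part of that test. No test was possible with a single library in each group. Fragments were estimated from the vector table's low values over genes with 1 GENCODE vM21 transcript, and rest on 18 and 15 genes in the Sox12 and mock vector libraries. The depth of the Treg libraries is unknown. Windows and snoRNA hosts come from GENCODE vM21 on GRCm38, another build than the authors', and Rps3a was matched as Rps3a1. Promoters on mouse chromosome 18 were not used here. Protein sequences were not used here. Named members are the 10 most abundant of each experiment, the 10 at each end of the changes, those under 10 FPKM and fixed paralog pairs, except a few genes that are not reported here. Further members, such as Rpl5, Rps6, Rps3 and Rpsa, were added for their known roles after their values were seen. Members and lists were chosen with earlier results of these data known.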

Additional observations from a re-analysis of the deposited data

How the results depend on the processing

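The alternatives were pseudocounts of 0.1 and 5, no filter, a mean of at least 5 FPKM, and 4 other scalings. With the Sox12 vector the median change of the members ranged from -0.38 to -0.29, the value furthest toward 0 (-0.29) coming with equal totals without the 20 highest genes. The number of members higher was 3 under all but the unfiltered setting, where it was 4, and 1 member, Rpl26, was then called. In DSS Treg the median ranged from -0.06 to -0.01. There 14 members were higher with the median gene set to 0 and 18 with equal 75th percentiles, against 30 as reported, so 61 and 57 were lower. The sign of 16 of the 75 single members in DSS Treg changed under at least 1 of the 8 alternatives, and that of 0 of 78 with the Sox12 vector. Under the other pseudocounts and filters 30 members were higher in DSS Treg, as reported, so the sign changes came only with the 4 other scalings. Which scaling is right for these libraries was not tested. No paired analysis was possible because each group has 1 library. Depth limits Rpl39l, Rps27, Rpl30 and Rpl21 most.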

Other observations

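Many small nucleolar RNAs (snoRNAs), which guide the modification of ribosomal RNA, are cut from introns of ribosomal protein genes. In the annotation 58 snoRNA genes lay on the same strand inside 30 members, and 32 of them were in the vector table by symbol. Of the 21 with a mean of at least 1 FPKM 15 were lower and 6 higher with the Sox12 vector, with a median change of -0.50. Over all genes past that filter 51.1% were lower. Snord34, inside Rpl13a, had 5768 FPKM with the Sox12 vector and 8177 FPKM with the mock vector, and Snord32a, in the same gene, had 436 and 927 FPKM in that order, while the host changed by -0.19. Snord33 of the same host had 164 FPKM with the Sox12 vector and 155 FPKM with the mock vector. Snord100, inside Rps12, had 1012 FPKM with the Sox12 vector and 1891 FPKM with the mock vector. Of the 21, 6 were called lower and 4 called higher. Some values are 0 in 1 library. Snord42b, inside Rpl23a, is listed at 0 FPKM with the Sox12 vector and 673 FPKM with the mock vector, while Snord83b, inside Rpl3, is listed at 37.9 FPKM with the Sox12 vector and 0 FPKM with the mock vector, and Snora62, inside Rpsa, at 11.6 and 0 FPKM in the same order. An exact 0 can be a failed estimate, and the snoRNAs named here were picked with their values in view.

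Processed pseudogenes listed under their own symbols were lower with the Sox12 vector in the 5 rows given here. Rps19-ps3 had 134 FPKM with the Sox12 vector and 172 FPKM with the mock vector, Rpl31-ps12 259 and 318 FPKM, Rplp2-ps1 460 and 555 FPKM, Rps15a-ps6 30.1 and 40.2 FPKM and Rps15a-ps4 20.6 and 27.6 FPKM in the same order. Rpl31-ps12 thus stood above Rpl31 itself, which had 71.7 FPKM with the Sox12 vector and 88.5 FPKM with the mock vector. The pseudogenes were picked in the same way.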
